A study of Mus musculus with 30 samples.

Results

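The 6 genes described are Klf2, Klf3 and Klf6, 3 members of the Krüppel-like factor family of zinc finger transcription factors, S1pr1 and S1pr4, 2 receptors for sphingosine 1-phosphate, and Cd69, an early activation antigen. They are 6 of the 31592 gene symbols measured over 8 single-cell RNA libraries, and all 6 were in the table of every library. The set was proposed with earlier results of these data in view, together with the question whether Klf2, its target S1pr1 and Klf3 are lower together in T cells after treatment. The values by cell class and treatment that chose the set are therefore given as a description, with no test. Tests are given for other measures: differences between cells of the same library, clone size from the receptor libraries, and bulk RNA. The splits by Klf2, Cd69 or clone size take their RNA values from the same cells and genes as the values that chose the set. Their p-values are therefore not independent of that choice.

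Mice of the strain C57BL/6J carried 1 of 3 oral squamous carcinoma lines, and the antibodies were injected into the peritoneum on days 3, 6 and 9 after the tumour cells were given. Both antibodies block receptors that restrain T cells, and the study set tumour-infiltrating cells of responding and resistant conditions side by side. MOC1 mice received anti-PD-1, anti-CTLA-4 or isotype control antibody. MOC1E1 mice, a line also labelled MOC1esc1, received the same 3 antibodies, and MOC22 mice received anti-PD-1 or isotype control. Each of these 8 conditions has 1 RNA library and 1 T cell receptor library, so no treatment difference in single cells has a replicate check. Untreated tumours of MOC1E1 and MOC1, and cultures of both lines, gave bulk RNA, with 3 libraries a group. The labels give no treatment for the cultures, while their column names mention interferon gamma. The labels do not say how many mice were pooled in a library, or whether bulk libraries of a group are separate animals or cultures, so p-values measure the spread between these samples.

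A T cell leaves a tissue by following sphingosine 1-phosphate, which is high in blood and lymph and low in tissue. KLF2 keeps naive and central memory T cells in circulation by switching on S1pr1, and antigen receptor signalling switches Klf2 off. CD69 binds the S1PR1 protein and pulls it from the cell surface, so a cell can lose the receptor with its mRNA unchanged. KLF3 acts mostly as a repressor and binds the same CACCC-type DNA boxes as KLF2. KLF6 is an immediate-early factor in many cell types, and S1PR4 is a lymphoid receptor of the same ligand.

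The promoters of the 2 factors that were lower together are shown because KLF proteins bind CACCC boxes and because MEF2 factors are known regulators of Klf2. The sequences are the 250 bases before the RefSeq start on GRCm38.p6, read 5′ to 3′ on the gene's strand, with 2 motifs in capitals on either strand. One is the CACCC box, which reads GGGTG on the other strand. The other is a MEF2-type motif, CTA and TAG with any 4 bases between, which is its own reverse complement. No matches of the 2 motifs overlap. Klf2 lies at chr8:72318812-72319061 and Klf3 at chr5:64803271-64803520, both on the plus strand.
Klf2: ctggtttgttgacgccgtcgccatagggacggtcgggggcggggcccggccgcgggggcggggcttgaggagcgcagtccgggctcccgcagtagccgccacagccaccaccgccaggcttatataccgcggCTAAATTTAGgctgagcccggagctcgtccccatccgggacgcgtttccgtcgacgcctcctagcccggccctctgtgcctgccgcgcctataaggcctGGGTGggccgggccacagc
Klf3: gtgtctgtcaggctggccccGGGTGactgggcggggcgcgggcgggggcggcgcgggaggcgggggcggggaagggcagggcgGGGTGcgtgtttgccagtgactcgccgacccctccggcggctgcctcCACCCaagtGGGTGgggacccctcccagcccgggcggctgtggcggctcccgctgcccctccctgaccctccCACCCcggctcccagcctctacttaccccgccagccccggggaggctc
The Klf2 window holds 1 CACCC match and 1 MEF2-type match, and the Klf3 window holds 5 CACCC matches and no MEF2-type match. Of 32851 mouse promoter windows of this length, 52.0% hold at least 1 CACCC match, 6.92% hold 3 or more, and 3.20% hold the MEF2-type motif. Of the 6 genes, 4 had a promoter in the RefSeq table; the Klf6 window holds neither motif and the S1pr4 window 1 CACCC match. A match describes the letters and is not a measured binding site.

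Cells were classed by their own transcripts. CD8 cells had a UMI (a counted RNA molecule) of a CD3 chain and of Cd8a or Cd8b1 and none of Cd4 or Foxp3. CD4 cells had a CD3 chain and Cd4 and neither CD8 chain nor Foxp3, and Foxp3-positive cells had a CD3 chain and Foxp3 and no CD8 chain. NK cells had Ncr1 or Klrb1c and no CD3 chain. The labels call the MOC1 and MOC22 material T cells and the MOC1E1 material immune cells. The libraries held 14766019 to 28466596 UMIs, and 28192 cells were used, with a median of 3994.5 to 5878 UMIs per cell and library. They included 10288 CD8, 3408 CD4, 2312 Foxp3-positive and 1437 NK cells. NK cells numbered 263 to 617 in MOC1E1 libraries and at most 11 elsewhere, so they are described in MOC1E1 only. The anti-CTLA-4 libraries held 44 (MOC1) and 41 (MOC1E1) Foxp3-positive cells, against 1161 and 177 in the isotype libraries of these models. No pair of libraries shared more than 35 cell barcodes. The MOC1E1 and MOC22 tables hold no cell above 5% mitochondrial UMIs and the MOC1 tables do, so levels are compared within a model.

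Among isotype libraries Klf2 was lowest in Foxp3-positive cells in MOC1E1 and MOC1, and about equal over the T cell classes in MOC22. Levels are UMIs per 1000000 UMIs of the class (CPM). In MOC1E1 isotype tumours Klf2 stood at 804 CPM in NK cells, 724 in CD4, 549 in CD8 and 277 in Foxp3-positive cells. In MOC1 isotype tumours it stood at 494 CPM in CD8, 364 in CD4 and 261 in Foxp3-positive cells. In MOC22 the 3 T cell classes lay at 539, 538 and 529 CPM, with counting intervals that overlap. S1pr1 had another order: CD4 cells were highest in all 3 isotype libraries, at 203 (MOC1E1), 147 (MOC1) and 196 CPM (MOC22), and NK cells were lowest in MOC1E1, at 30.2 CPM.

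In CD8 cells Klf2, Klf3 and S1pr1 were all lower with treatment in each of the 5 comparisons, and Klf3 showed the largest fold in every comparison except MOC1 with anti-PD-1, where Klf2 did. The 15 values (3 genes, 5 comparisons) were all below 0 on the log2 scale with 95% counting intervals that exclude 0, and 11 were at -1 or lower. Over all genes measured in CD8 cells, the share at -1 or lower was 3.98% and 5.82% for MOC1 anti-PD-1 and anti-CTLA-4, 1.76% and 5.21% for MOC1E1 anti-PD-1 and anti-CTLA-4, and 5.79% for MOC22 anti-PD-1. The genes were chosen on this contrast, so nothing is read from that difference. The anti-PD-1 and anti-CTLA-4 comparisons of a model share 1 isotype library. Intervals cover counting error only, and not the spread between mice.

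Klf2 in CD8 cells stood at 177 CPM with anti-PD-1, 83.0 CPM with anti-CTLA-4 and 494 CPM with isotype in MOC1. The MOC1E1 libraries had 409.5 CPM with anti-PD-1, 128 CPM with anti-CTLA-4 and 549 CPM with isotype. The MOC22 libraries had 144 CPM with anti-PD-1 and 539 CPM with isotype. The MOC1 log2 ratios to isotype were -1.48 (95% interval -1.57 to -1.40) for anti-PD-1 and -2.57 (-2.67 to -2.47) for anti-CTLA-4. For MOC1E1 they were -0.42 (-0.54 to -0.31) and -2.10 (-2.23 to -1.97), and the MOC22 ratio was -1.90 (-1.98 to -1.83). Each treated library lay below the isotype library of its model, and MOC1E1 with anti-PD-1 lay nearest to its own.

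Klf3 in MOC1 CD8 cells stood at 49.6 CPM with anti-PD-1, 6.65 CPM with anti-CTLA-4 and 104 CPM with isotype. In MOC1E1 it stood at 73.7 CPM with anti-PD-1, 12.2 CPM with anti-CTLA-4 and 120.4 CPM with isotype. In MOC22 it stood at 13.8 CPM with anti-PD-1 and 83.3 CPM with isotype. The MOC1 log2 ratios were -1.07 (-1.25 to -0.90) for anti-PD-1 and -3.97 (-4.30 to -3.66) for anti-CTLA-4. For MOC1E1 they were -0.71 (-0.96 to -0.45) and -3.30 (-3.67 to -2.94), and the MOC22 ratio was -2.59 (-2.83 to -2.37). The isotype level was thus 15.6 times that with anti-CTLA-4 in MOC1 and 9.84 times in MOC1E1. Each treated library again lay below the isotype library of its model.

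S1pr1, the receptor that reads the exit signal, was lower by less than either KLF gene in each comparison. In MOC1 CD8 cells it stood at 37.6 CPM with anti-PD-1, 17.3 CPM with anti-CTLA-4 and 70.6 CPM with isotype. In MOC1E1 it stood at 80.6 CPM with anti-PD-1, 40.3 CPM with anti-CTLA-4 and 98.9 CPM with isotype. In MOC22 it stood at 38.4 CPM with anti-PD-1 and 127 CPM with isotype. The log2 ratios were -0.91 (-1.12 to -0.70), -2.03 (-2.27 to -1.79), -0.30 (-0.56 to -0.03), -1.30 (-1.57 to -1.02) and -1.73 (-1.87 to -1.58), in the order of the Klf2 ratios. S1pr1 ranges of treated and isotype libraries overlapped across models, since MOC1E1 with anti-PD-1 lay above MOC1 with isotype.

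**Figure D1:**
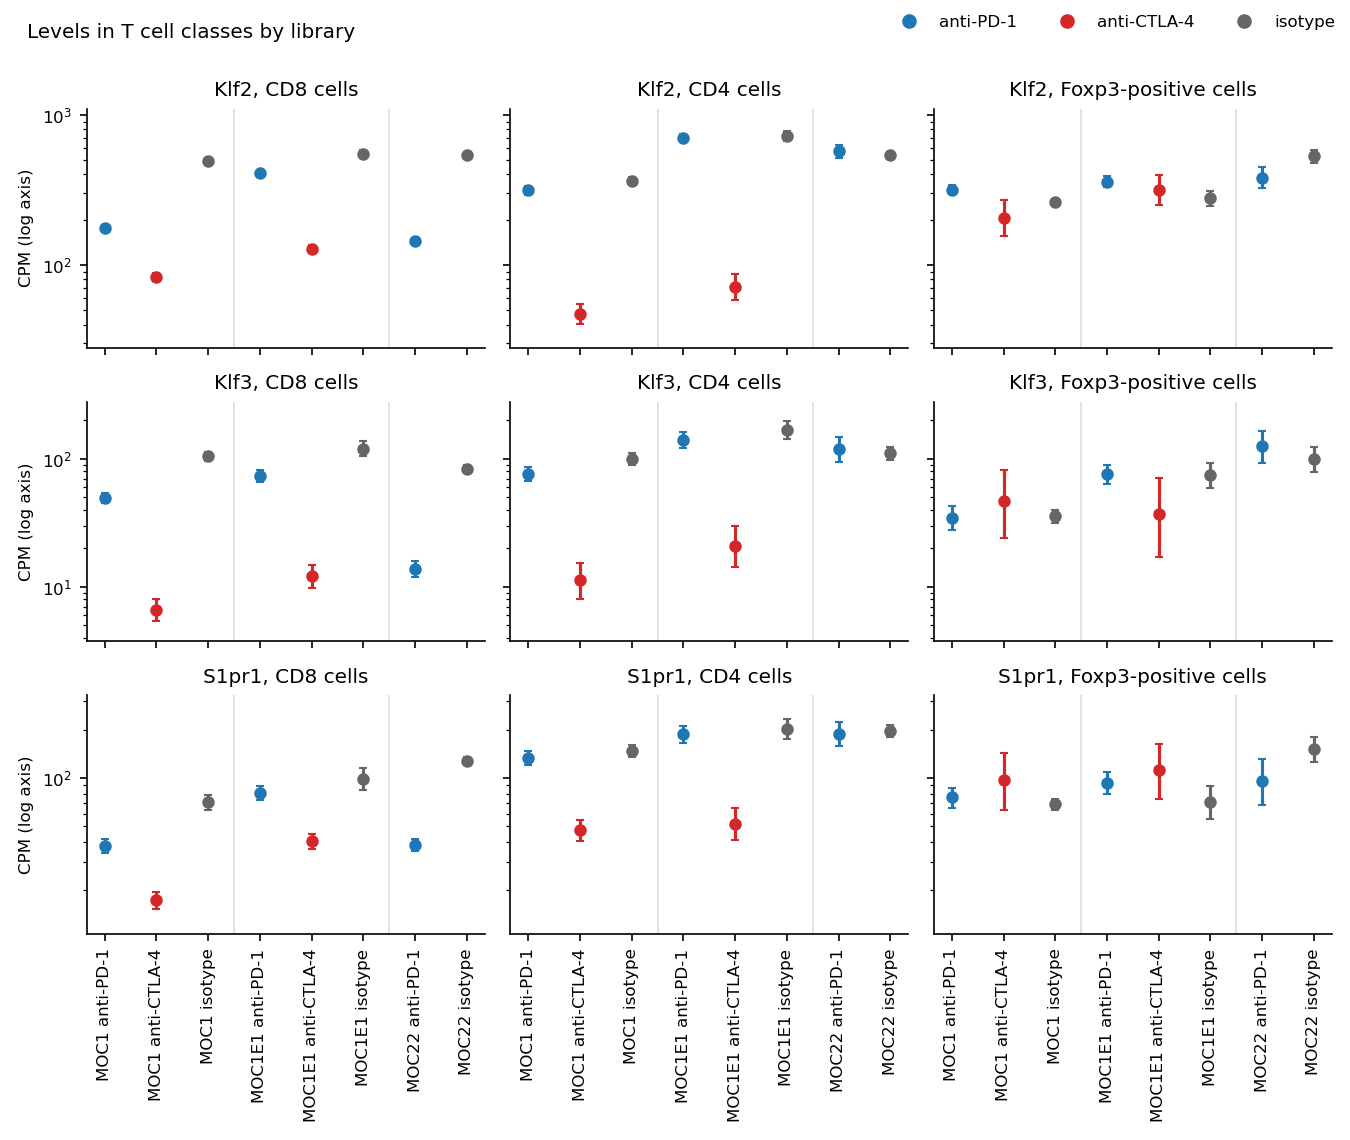
Level of Klf2, Klf3 and S1pr1 in CPM (log axis) by cell class and library, with anti-PD-1 and anti-CTLA-4 left of isotype in each model; points are library sums and bars are exact 95% Poisson intervals. In CD8 cells Klf3 lies lower in each of the 5 treated libraries than in the isotype library of the same model.

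The share of CD8 cells with a Klf2 transcript gave the same order within each model. After each CD8 cell was thinned to 2000 UMIs, Klf2 was found in 23.7% of MOC1 cells with anti-PD-1, 11.3% with anti-CTLA-4 and 48.9% with isotype. The MOC1E1 shares were 40.3% and 16.3% with the same antibodies and 52.7% with isotype, and the MOC22 shares were 14.0% with anti-PD-1 and 54.1% with isotype. At full depth the MOC1 shares were 38.7% and 21.6% with the same antibodies and 64.6% with isotype. As a check on free RNA, Klf2 was found in 2.33% to 7.89% of thinned macrophages (cells with C1qa and C1qb UMIs) of the 3 MOC1E1 libraries, below the CD8 shares there. S1pr1 was found in 0 of 346 macrophages of the MOC1E1 anti-PD-1 library, against 15.8% of its CD8 cells. The median depth was 7211 UMIs in those macrophages and 5734 in those CD8 cells. Klf3 was found in 10.5% to 12.4% of macrophages, and in 3.14% of CD8 cells of the MOC1E1 anti-CTLA-4 library, so shares of cells with Klf3 are not read. The MOC1 and MOC22 libraries had fewer than 30 macrophages each after thinning, so their shares have no such check.

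The MOC1 libraries carry 4 hashtags each (antibody barcodes added to batches of cells before pooling), whose meaning the labels do not give, so hashtag groups are not treated as replicates. In CD8 cells Klf2 lay at 101 to 284 CPM over the 4 groups with anti-PD-1 and at 70.2 to 104 CPM with anti-CTLA-4, against 416 to 559 CPM with isotype. Klf3 lay at 37.5 to 76.2 CPM, 4.75 to 8.66 CPM and 93.4 to 112 CPM over the same groups. No treated group reached an isotype group for either gene. The genes were chosen on this contrast, and the share of all genes that separate so was not measured, so nothing is read from it. S1pr1 lay at 22.3 to 59.6 CPM with anti-PD-1, 13.5 to 23.9 CPM with anti-CTLA-4, against 50.7 to 88.8 CPM with isotype, so its anti-PD-1 and isotype groups overlapped.

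**Figure D2:**
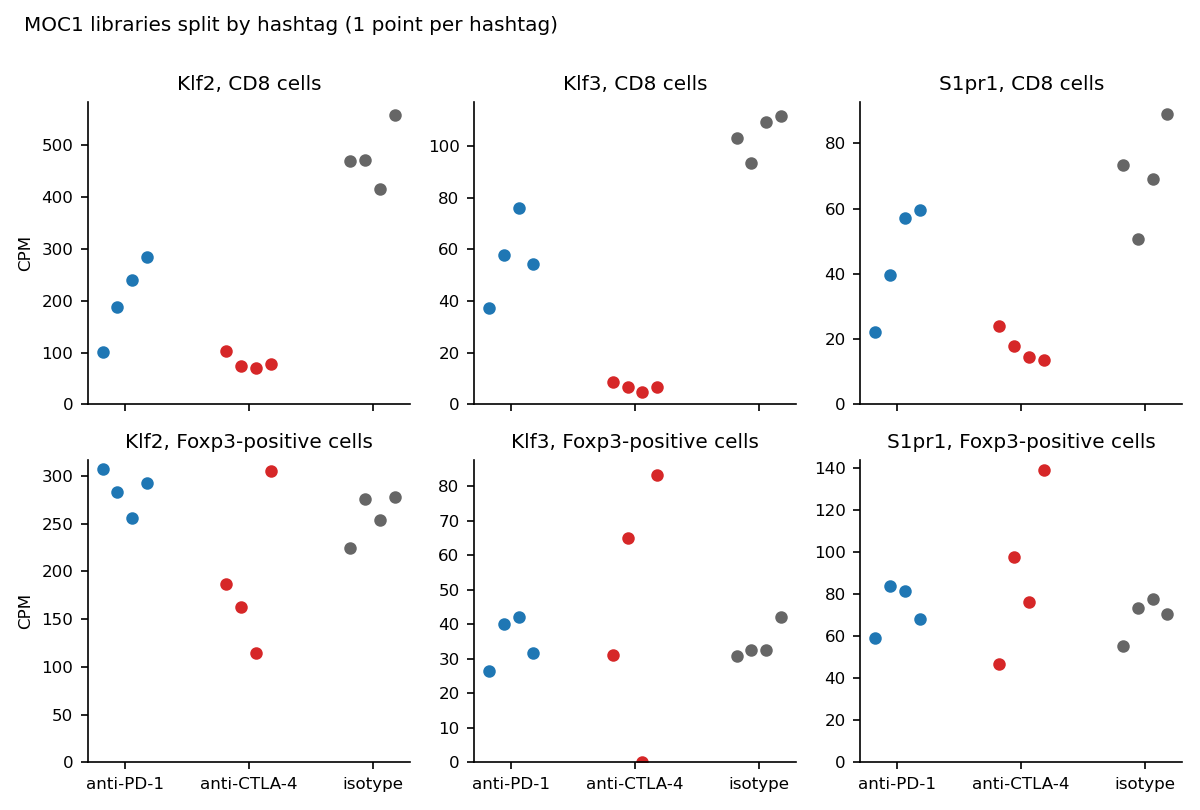
Klf2, Klf3 and S1pr1 (CPM) in CD8 cells (top) and Foxp3-positive cells (bottom) of each of the 4 hashtag groups of the 3 MOC1 libraries. In CD8 cells the anti-CTLA-4 groups lie below all isotype groups for each gene, and in Foxp3-positive cells the groups of the 3 libraries overlap. The anti-CTLA-4 groups hold 395 to 700 CD8 cells but only 8 to 13 Foxp3-positive cells each. The groups are not replicates, and the genes were chosen on this contrast.

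Beside these values, the share of CD8 cells with Ccr7, a chemokine receptor of cells that enter lymph nodes, was also lower in treated libraries. After thinning it was 13.3% with anti-PD-1, 5.34% with anti-CTLA-4 and 20.8% with isotype in MOC1. In MOC1E1 it was 7.64% and 1.33% with the same antibodies, against 18.5% with isotype, and in MOC22 1.46% with anti-PD-1 and 23.9% with isotype. With those cells left out, a step added after seeing the data, all 15 values in CD8 cells were still below 0. Klf2, Klf3 and S1pr1 then had log2 ratios of -1.84, -1.38 and -1.27 in MOC1 with anti-PD-1, and -1.69, -2.03 and -1.57 in MOC22. Macrophage markers summed to 963 CPM with anti-PD-1, 52.4 CPM with anti-CTLA-4 and 189 CPM with isotype in MOC1E1 CD8 cells, with 5 of the 6 listed genes at 20 or more UMIs, and to at most 10.8 CPM in the CD8 sums of the other models. Neutrophil markers in MOC1E1 CD8 cells summed to 161 CPM with anti-PD-1, 81.0 CPM with anti-CTLA-4 and 5.24 CPM with isotype, and to at most 2.18 CPM in the other models. Carcinoma cell markers in MOC1 CD8 cells summed to 10.98 and 2.66 CPM with the same antibodies and 75.0 CPM with isotype, with 3 of 4 genes measured and all 3 lower. B cell markers in MOC22 CD8 cells summed to 7.19 CPM with anti-PD-1 and 44.9 CPM with isotype, and in MOC1E1 to 20.2 and 5.51 CPM against 49.5 CPM. The part of these markers in the CD8 values was not tested.

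In CD4 cells without Foxp3 the 3 genes had log2 ratios below -1 with anti-CTLA-4, in both models that received it, and not with anti-PD-1. Klf2 stood at 46.9 CPM with anti-CTLA-4 and 364 CPM with isotype in MOC1, and at 71.7 CPM with anti-CTLA-4 and 724 CPM with isotype in MOC1E1. The isotype level was 7.74 times and 10.1 times that with anti-CTLA-4. Klf3 stood at 11.3 CPM with anti-CTLA-4 against 99.4 CPM with isotype in MOC1, and at 21.0 CPM against 169.5 CPM in MOC1E1. S1pr1 stood at 47.2 CPM with anti-CTLA-4 against 147 CPM with isotype in MOC1, and at 52.1 CPM against 203 CPM in MOC1E1. All 6 ratios lay between -3.33 and -1.64, and all 6 intervals lay below 0. Macrophage markers in the MOC1E1 CD4 sums stood at 1129 CPM with anti-PD-1, 264 CPM with anti-CTLA-4 and 446 CPM with isotype, and in MOC1 at 1.25, 16.7 and 32.8 CPM. The share of thinned CD4 cells with Ccr7 was 20.5% with anti-PD-1, 5.21% with anti-CTLA-4 and 19.9% with isotype in MOC1. In MOC1E1 it was 12.5%, 1.94% and 17.7% in the same order. With Ccr7 cells left out, a step added after seeing the data, 6 values were still at -1 or lower. The part of macrophage markers and of Ccr7 cells in the CD4 values was not tested.

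With anti-PD-1 the summed CD4 levels lay closer to isotype. Klf2 stood at 313 CPM with anti-PD-1 and 364 CPM with isotype in MOC1, at 699 and 724 CPM in MOC1E1, and at 572 and 538 CPM in MOC22. The 9 anti-PD-1 ratios of the 3 genes lay between -0.38 and 0.12, and 2 of their intervals, those of Klf2 and Klf3 in MOC1, lay below 0. In MOC22 the share of thinned CD4 cells with Klf2 was lower, at 40.2% with anti-PD-1 (exact binomial 95% interval 31.0 to 49.9), against 57.5% with isotype (52.9 to 62.0). The share with Ccr7 was 15.2% with anti-PD-1 and 43.8% with isotype, and the median log2 ratio of all genes there was 0.23. Of all genes measured in CD4 cells, 6.76% and 6.68% were at -1 or lower with anti-CTLA-4 in MOC1 and MOC1E1. With anti-PD-1 the shares were 2.23% in MOC1, 1.66% in MOC1E1 and 4.74% in MOC22. Whether CD4 cells differ between the antibodies was not tested, since each has 1 library a model. In MOC1, the 4 hashtag groups had 33.6 to 71.6 CPM of Klf2 with anti-CTLA-4, against 280.4 to 480.1 CPM with isotype.

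Foxp3-positive cells, the class that holds regulatory T cells, did not have lower levels of the 3 genes as a group. Of 15 values 5 were below 0 and none was at -1 or lower. Of all genes in Foxp3-positive cells, 3.30% and 13.5% were at -1 or lower for MOC1 anti-PD-1 and anti-CTLA-4, 2.15% and 8.93% for MOC1E1, and 4.28% for MOC22. Klf2 stood at 316 CPM with anti-PD-1, 206 CPM with anti-CTLA-4 and 261 CPM with isotype in MOC1. In MOC1E1 it stood at 359 CPM with anti-PD-1, 316 CPM with anti-CTLA-4 and 277 CPM with isotype. In MOC22 it stood at 381 CPM with anti-PD-1 and 529 CPM with isotype. The 3 intervals above 0 were those of Klf2 with anti-PD-1 in MOC1 (0.28) and MOC1E1 (0.37) and of S1pr1 with anti-PD-1 in MOC1E1 (0.40). The 2 intervals below 0 were those of Klf2 (-0.47, -0.75 to -0.20) and S1pr1 (-0.66, -1.24 to -0.13) in MOC22. S1pr1 stood at 112 CPM with anti-CTLA-4 and 70.8 CPM with isotype in MOC1E1, a ratio of 0.68 whose interval (-0.03 to 1.32) includes 0. In the same comparison Klf3 went the other way, at 37.4 CPM (9 UMIs) with anti-CTLA-4 and 74.6 CPM with isotype. Its ratio was -0.93, with an interval (-2.18 to 0.002) that just includes 0. With anti-CTLA-4 in MOC1 the Klf3 ratio was 0.45 (-0.57 to 1.22). The anti-CTLA-4 sums rest on few cells, and their intervals are accordingly wide. Macrophage markers in MOC1E1 Foxp3-positive cells summed to 1460 CPM with anti-PD-1, 4.15 CPM with anti-CTLA-4 and 1321 CPM with isotype, and their part in these values was not tested.

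NK cells of MOC1E1 tumours had 908 CPM of Klf2 with anti-PD-1 and 474 CPM with anti-CTLA-4, against 804 CPM with isotype. Klf3 stood at 94.7 CPM and 45.9 CPM with the same antibodies, against 95.6 CPM with isotype. S1pr1 stood at 37.5 and 36.0 CPM, against 30.2 CPM with isotype. With anti-CTLA-4 the 2 KLF genes were thus lower, with log2 ratios of -0.76 (-0.91 to -0.62) and -1.05 (-1.53 to -0.60), and S1pr1 was not, at 0.26 (-0.36 to 0.85). Of all genes measured in NK cells, 3.91% were at -1 or lower with anti-CTLA-4 and 1.27% with anti-PD-1.

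**Figure D3:**
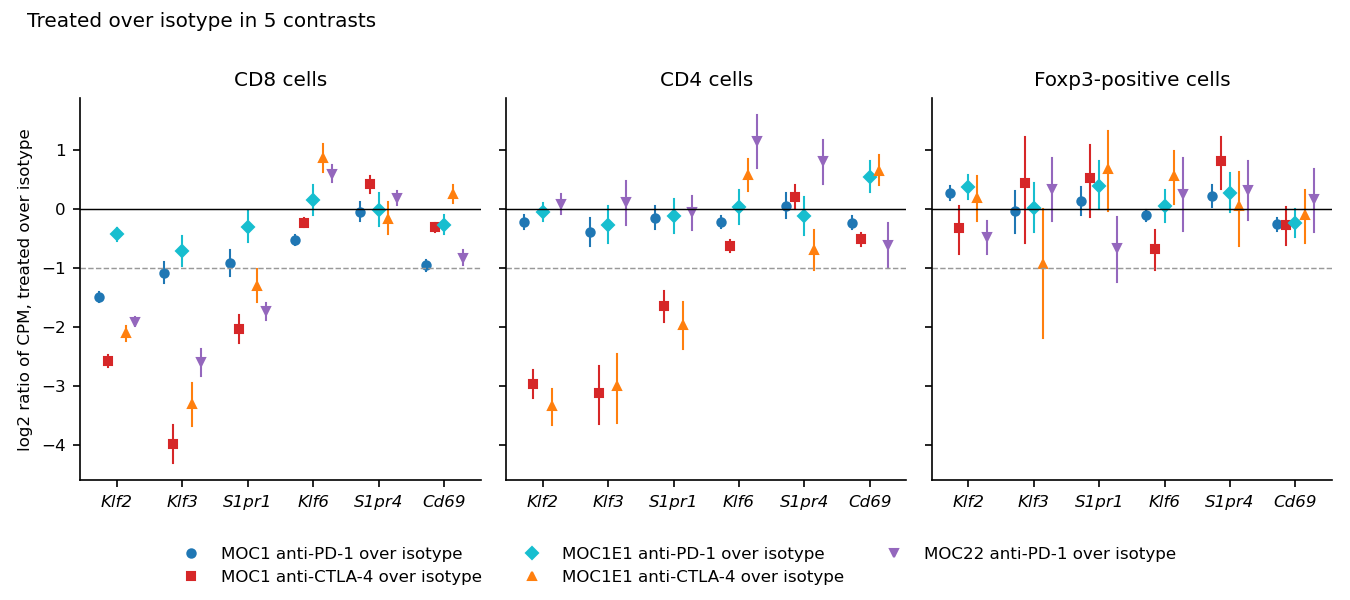
Log2 ratio of treated to isotype CPM for the 6 genes in CD8, CD4 and Foxp3-positive cells, 1 marker for each of the 5 comparisons, with 95% counting intervals and a dashed line at -1. Klf2, Klf3 and S1pr1 lie below 0 in all 5 comparisons in CD8 cells and lie at -1.64 or lower in CD4 cells in the 2 anti-CTLA-4 comparisons.

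Klf6, S1pr4 and Cd69 were not at -1 or lower in any CD8 comparison, and none was lower in all 5. Klf6 in CD8 cells stood at 282 CPM with anti-PD-1, 344 CPM with anti-CTLA-4 and 403 CPM with isotype in MOC1. In MOC1E1 it stood at 111 CPM and 181 CPM with the same antibodies, against 99.5 CPM with isotype, and in MOC22 at 84.2 CPM with anti-PD-1 and 55.5 CPM with isotype. It was therefore lower in MOC1 (-0.52 and -0.23) and higher in MOC1E1 with anti-CTLA-4 (0.86) and in MOC22 (0.60). S1pr4 lay within a narrow range in CD8 cells, at 76.8 to 138 CPM over the 8 libraries, with log2 ratios of -0.16 to 0.42.

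Cd69, whose product holds S1PR1 inside the cell, was lower in 4 of 5 CD8 comparisons. It stood at 187 CPM with anti-PD-1, 292 CPM with anti-CTLA-4 and 361 CPM with isotype in MOC1. In MOC1E1 it stood at 207 and 296 CPM, against 248 CPM with isotype, and in MOC22 at 66.2 CPM with anti-PD-1 and 117 CPM with isotype. The log2 ratios were -0.95, -0.31, -0.26, 0.26 and -0.82, none at -1. In NK cells of MOC1E1 it was higher, at 147 CPM with anti-PD-1, 229.7 CPM with anti-CTLA-4 and 112 CPM with isotype.

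Genes that mark circulating T cells were mostly lower beside them, and genes linked to tissue residence mostly higher. The lists were written with earlier results of these data known and are given as counts. Of 11 circulation and lymph node homing genes in CD8 cells, 10 and 8 were lower in MOC1 with anti-PD-1 and anti-CTLA-4, 9 and 10 in MOC1E1, and 9 in MOC22. Their median log2 ratios were -1.09, -0.67, -0.65, -1.25 and -0.91, beside 0.02, 0.02, 0.04, 0.01 and 0.15 for all genes. Il7r, the interleukin 7 receptor, had a log2 ratio of -1.53 in MOC1 and -0.70 in MOC22 with anti-PD-1, and 0.01 in MOC1E1 with anti-CTLA-4. Of the residence list, 12 or 13 of 14 genes had enough UMIs and 9, 9, 9, 9 and 10 were higher. All genes together also had positive medians in each comparison, so these counts are a description only. Cxcr6, a chemokine receptor of resident T cells, stood at 595 CPM with anti-PD-1, 506 CPM with anti-CTLA-4 and 186 CPM with isotype in MOC1. Xcl1, a chemokine on the same list, went the other way, at 139 CPM with anti-CTLA-4 and 506 CPM with isotype in MOC1.

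Of the 14 other KLF genes, 6 or 7 had enough UMIs in CD8 cells. In MOC1, 7 of 7 were lower with anti-PD-1. The anti-CTLA-4 count there was 5 of 7, and the counts were 5 of 6 and 3 of 7 in MOC1E1 and 3 of 6 in MOC22. Of these 33 values 1 was at -1 or lower, and the medians over the 5 comparisons were -0.38, -0.11, -0.28, 0.32 and -0.17. The medians of all genes in CD8 cells were 0.02, 0.02, 0.04, 0.01 and 0.15 in the same order. Klf13 had -0.31 and -0.11 in MOC1, -0.14 and 0.32 in MOC1E1, and -0.55 in MOC22. Of 13 other genes of the sphingosine 1-phosphate pathway, 7 or 8 had enough UMIs, of which 2 or 4 were lower, with medians of 0.21, 0.23, 0.19, -0.09 and 0.27. Gnai2, a G protein subunit through which S1PR1 signals, had 352 CPM with anti-PD-1, 351 CPM with anti-CTLA-4 and 286 CPM with isotype in MOC1. Immediate-early and heat shock genes, which tissue dissociation can switch on, were lower for 12 of 14 genes in MOC1 with anti-PD-1 and for 4 of 14 in MOC22. Their medians were -0.53, 0.00, 0.06, 0.37 and 0.60. Their part in the Klf6 and Cd69 values was not tested.

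Within a library, S1pr1 and Klf3 were higher in the cells that held Klf2. For this test each T cell was thinned to 2000 UMIs, cells with and without a Klf2 UMI were summed within each library, and the paired sums were compared over all genes with edgeR's quasi-likelihood test. In CD8 cells of 8 libraries S1pr1 had a lowest, median and highest level of 78.1, 169.6 and 284 CPM in Klf2-positive cells and 14.8, 33.4 and 89.4 CPM in Klf2-negative cells. Klf3 had 58.0, 132 and 197 CPM in Klf2-positive cells and 5.11, 35.6 and 93.8 CPM in Klf2-negative cells. Both were higher in Klf2-positive cells in 8 of 8 libraries, while the ranges over libraries overlap. The log2 fold change was 2.48 ± 0.24 (SE) for S1pr1, with an edgeR adjusted p of 4.0e-06, and 2.05 ± 0.26 for Klf3, with an adjusted p of 2.3e-05.

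The other 3 genes passed the test with smaller differences in CD8 cells. S1pr4 rose by 0.80 ± 0.13 (edgeR adjusted p = 3.8e-04), Cd69 by 0.77 ± 0.12 (2.7e-04) and Klf6 by 0.76 ± 0.11 (8.3e-05), all log2 fold changes with SE. S1pr4 and Klf6 were higher in 8 of 8 libraries and Cd69 in 7 of 8. Of 6137 genes tested, 7.95% were called higher and 7.02% lower. Of the homing list 10 of 11 genes rose (median log2 fold change 0.92, beside 0.01 for all genes), among them Il7r by 0.90 and Itgb7, an integrin chain, by 0.98. Of the residence list 6 of 12 tested genes fell, among them Cxcr6 (-1.16) and Xcl1 (-2.58). Of 4 other KLF genes and 5 other pathway genes tested, none was called. Of 11 immediate-early and heat shock genes tested, 6 were called higher and 0 lower (median 0.59), among them Ier2 (0.59). Their part in the Klf6 and Cd69 differences was not tested.

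The same split gave the same direction for S1pr1 and Klf3 in CD4 and Foxp3-positive cells. In CD4 cells of 8 libraries S1pr1 had a median of 289 CPM in Klf2-positive cells and 96.9 CPM in Klf2-negative cells, a log2 fold change of 1.69 ± 0.14 (edgeR adjusted p = 5.8e-09). Klf3 had medians of 179.6 and 55.1 CPM, a fold change of 1.53 ± 0.25 (1.6e-04). Klf2-positive CD4 cells were above Klf2-negative cells in 8 of 8 libraries for both genes. S1pr4 (0.73), Klf6 (0.64) and Cd69 (0.56) also passed the test in CD4 cells, though Cd69 had 0.31 and was not called with cells at full depth (edgeR adjusted p = 0.0503). The 2 anti-CTLA-4 libraries had too few Foxp3-positive cells with Klf2, so 6 libraries were tested there. Klf3 rose by 1.65 ± 0.25 (1.5e-03) and S1pr1 by 1.33 ± 0.22 (1.8e-03), each in 6 of 6 libraries. Klf6 rose by 0.94 ± 0.14 (1.5e-03) and Cd69 by 0.72 ± 0.18 (0.022), and Cd69 was not called without the MOC1 anti-PD-1 (0.23) or MOC1 isotype library (0.12), or with DESeq2 (0.57, adjusted p = 0.23). S1pr4 had 0.16 ± 0.18 in Foxp3-positive cells and was not called (edgeR adjusted p = 0.72). Of all genes tested, 5.56% were called higher and 5.78% lower in CD4 cells, and 2.72% and 1.99% in Foxp3-positive cells. Of the homing list 9 of 11 genes were called higher in CD4 cells (median 0.82) and 1 of 8 in Foxp3-positive cells (0.22). Of 9 residence genes 5 were called lower and 0 higher in CD4 cells, and 2 lower and 1 higher in Foxp3-positive cells. Of 11 immediate-early and heat shock genes, 5 were called higher in CD4 and 4 in Foxp3-positive cells, with 0 lower in both.

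**Figure D4:**
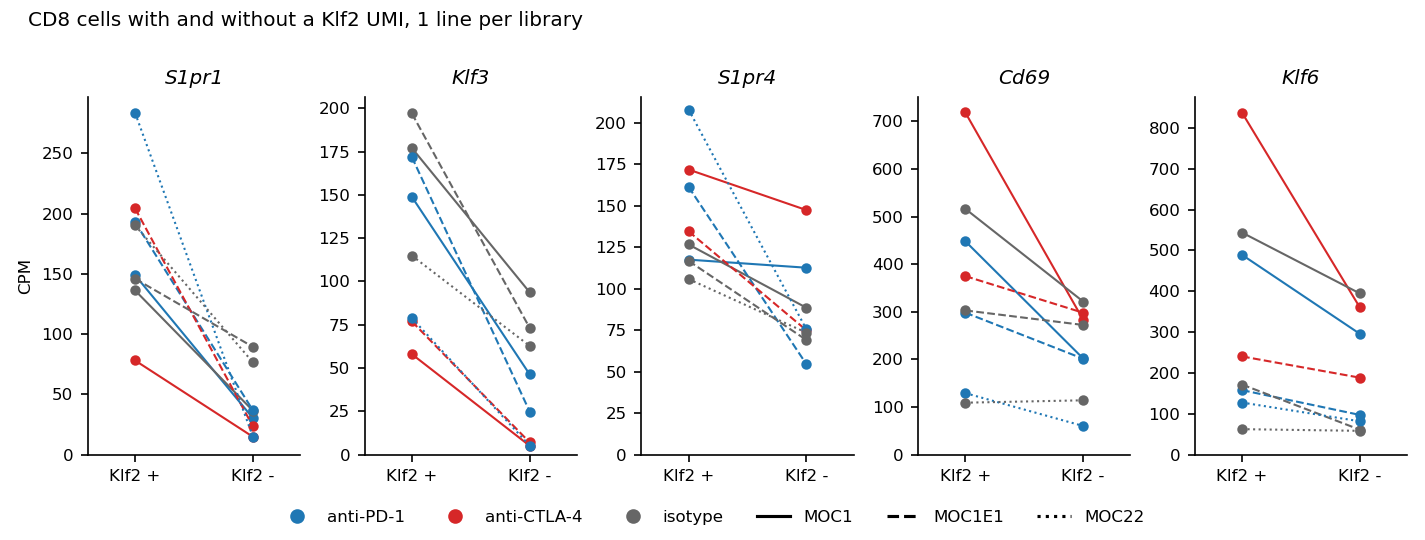
Klf3, S1pr1, Klf6, S1pr4 and Cd69 (CPM, cells thinned to 2000 UMIs) in Klf2-positive (left) and Klf2-negative (right) cells of each library, with a line joining the 2 sums of 1 library. S1pr1 and Klf3 are higher in the Klf2-positive CD8 cells of all 8 libraries.

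Cells with Cd69 transcripts did not have less Klf2 or S1pr1. In Cd69-positive CD8 cells Klf2 had a lowest, median and highest level of 173, 463 and 776 CPM, against 75.5, 332 and 577 CPM in Cd69-negative cells. It was higher in 7 of 8 libraries, by 0.60 ± 0.09 on the log2 scale (edgeR adjusted p = 9.1e-06). Klf6 rose by 0.55 ± 0.08 (9.1e-06) and Klf3 by 0.46 ± 0.13 (0.036). S1pr1 had medians of 84.5 CPM in Cd69-positive and 64.7 CPM in Cd69-negative cells, a difference of 0.29 ± 0.10 that was not called (edgeR adjusted p = 0.14). S1pr4 had 0.10 ± 0.08 (0.66). Of 12 immediate-early and heat shock genes tested 11 rose, among them Ier2 (0.41) and Junb (0.34), where 2.01% of all genes were called higher and 0.882% lower. With cells at full depth Klf2 had 0.37 and was not called (adjusted p = 0.11), and Klf3 was not called without any of 4 libraries, each left out in turn (MOC1 anti-PD-1, anti-CTLA-4 and isotype, and MOC22 anti-PD-1; adjusted p 0.074 to 0.36).

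CD8 cells of expanded clones had less Klf3, Klf2, S1pr1 and Cd69 than CD8 cells of single clones. A clone was counted as expanded when 2 or more cells of a library shared the CDR3 nucleotide sequences of both receptor chains. The receptor libraries did not enter the choice of the genes, but the RNA values of these CD8 cells did. The p-values are therefore not independent of that choice. Klf3 had a lowest, median and highest level of 1.98, 11.5 and 56.4 CPM in expanded clones, against 10.4, 93.6 and 114 CPM in single clones. Klf2 had 58.2, 110.2 and 384 CPM in expanded clones, against 95.6, 393 and 553 CPM in single clones. S1pr1 had 14.3, 25.7 and 79.0 CPM, against 17.6, 68.6 and 133 CPM in single clones. In each of the 8 libraries all 4 genes were lower in expanded clones, while the ranges over libraries overlap. The MOC1E1 isotype library had the fewest CD8 cells, 20 expanded and 99 single. The treated MOC1E1 libraries had 180 and 194 (anti-PD-1), and 333 and 158 (anti-CTLA-4). MOC1 libraries had 180 and 388 (isotype), 716 and 427 (anti-PD-1), and 1085 and 584 (anti-CTLA-4). MOC22 libraries had 212 and 484 (isotype), and 1091 and 244 (anti-PD-1). Expanded cells were thus the larger group in each treated library except MOC1E1 anti-PD-1, and the smaller group in each isotype library. The part of clone size in the CD8 treatment ratios was not tested.

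The log2 fold changes, expanded over single, were -2.47 ± 0.25 for Klf3 (edgeR adjusted p = 3.8e-04), -1.35 ± 0.17 for Klf2 (0.0025), -1.23 ± 0.25 for S1pr1 (0.018) and -0.68 ± 0.11 for Cd69 (0.0094). Klf6 (-0.08 ± 0.12) and S1pr4 (-0.11 ± 0.12) were not called, with adjusted p of 0.76 and 0.63. Of 8416 genes tested 3.91% were called lower and 2.46% higher. Of the homing list 9 of 11 genes fell (median -0.9997, beside -0.0024 for all genes), among them Satb1, a chromatin organiser of T cells, by 1.11 and Il7r by 0.90. Cxcr6 rose by 0.78 in expanded clones, 1 of 2 genes called higher among 12 of the residence list. Without the cells that held Ccr7, in 7 libraries, Klf3 and Klf2 were still called, while S1pr1 had -1.02 and was not (edgeR adjusted p = 0.058). Without the MOC1 anti-PD-1 library S1pr1 had -1.05 and was not called (0.063).

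**Figure D5:**
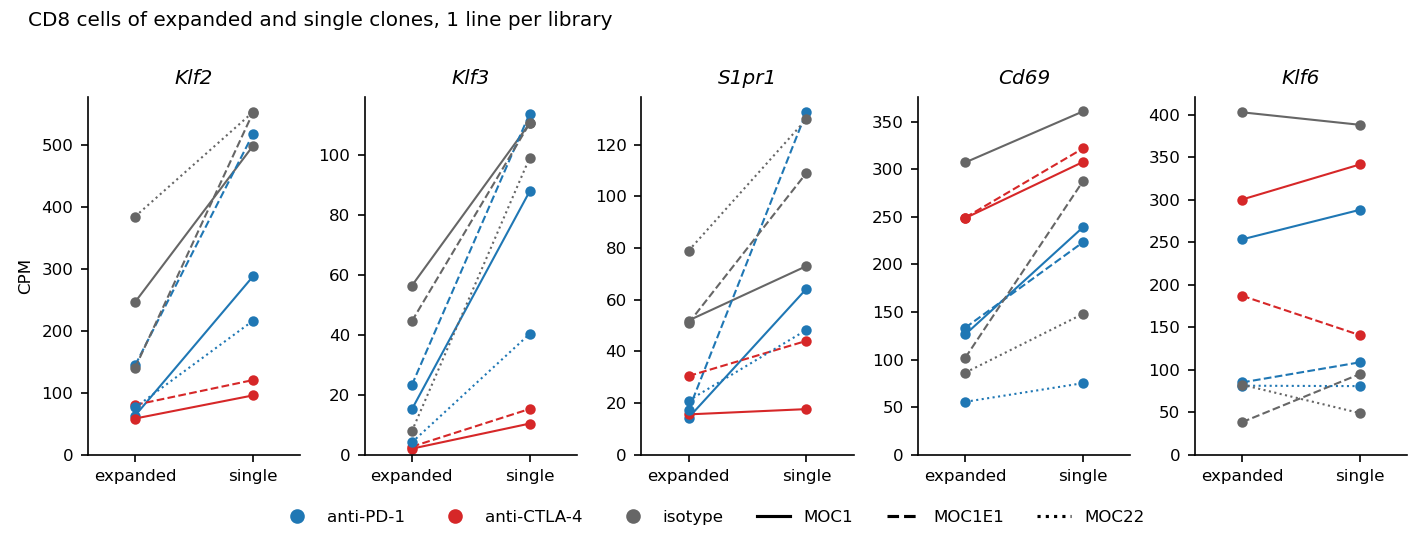
Klf2, Klf3, S1pr1, Cd69 and Klf6 (CPM) in CD8 cells of expanded (left) and single (right) clones of each library, with a line joining the 2 sums of 1 library. The first 4 genes are lower in expanded clones in all 8 libraries, and Klf6 is lower in 4 of 8.

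In bulk RNA of untreated tumours Klf2 and Cd69 were lower in MOC1E1 than in MOC1. Klf2 had 4.53, 3.86 and 4.67 TPM in MOC1E1 tumours, against 10.84, 9.67 and 10.64 TPM in MOC1 tumours. The groups do not overlap, and the means were 4.35 ± 0.43 and 10.4 ± 0.63 TPM (SD, n = 3 each), a difference of -1.09 ± 0.14 (SE) on the log2(TPM + 1) scale with a limma adjusted p of 0.0027. Cd69 had 2.57, 2.71 and 4.69 TPM in MOC1E1 tumours, against 8.29, 7.11 and 7.39 TPM in MOC1 tumours, a difference of -1.02 ± 0.21 (limma adjusted p = 0.016). Klf6 had 22.46, 25.14 and 24.96 TPM in MOC1E1 tumours, against 31.18, 35.54 and 30.10 TPM in MOC1 tumours (-0.40 ± 0.11, limma adjusted p = 0.039). Without any 1 of the 6 libraries Klf6 was not called, and Cd69 was not called without any of 4 (adjusted p 0.051 to 0.055). In whole tumours, fewer cells of a type and less RNA per cell cannot be told apart.

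Klf3 and S1pr1 were not called between the tumours. Klf3 had 38.49, 50.28 and 48.43 TPM in MOC1E1 tumours, against 58.86, 57.80 and 57.53 TPM in MOC1 tumours, with no overlap but an adjusted p of 0.074 by limma (-0.35 ± 0.11). S1pr1 had 4.73, 3.26 and 4.20 TPM in MOC1E1 tumours, against 4.66, 6.23 and 5.37 TPM in MOC1 tumours, and the groups overlap (-0.35 ± 0.18, limma adjusted p = 0.22). S1pr4 averaged 0.91 ± 0.43 TPM in MOC1E1 and 1.11 ± 0.38 TPM in MOC1 tumours (SD, n = 3 each). Of 15125 genes tested 11.9% were called lower and 6.70% higher in MOC1E1. Neutrophil markers summed to 11.4 to 31.1 TPM in MOC1E1 tumours and 166 to 221 TPM in MOC1 tumours, all 4 called lower, and macrophage markers to 464 to 756 TPM and 984 to 1040 TPM, 2 of 6 called lower. In MOC1E1 single-cell libraries 45.7% (anti-PD-1) and 47.3% (isotype) of thinned neutrophils, cells with S100a8 and Csf3r, held Klf2. The part of these cells in the bulk difference was not tested.

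Klf3 and Klf6 were also measured in the cultured carcinoma cells, whose 4 keratin and Epcam markers summed to 7971 to 9974 TPM and whose macrophage markers summed to 0.37 to 9.37 TPM. The columns of the culture table carry names that mention interferon gamma, while the labels give no treatment, so the state of these cultures is uncertain. Klf6 had 54.82, 53.63 and 54.60 TPM in MOC1E1 cultures, against 69.64, 71.36 and 60.32 TPM in MOC1 cultures (-0.30 ± 0.07, limma adjusted p = 0.0087). Klf3 had 39.62, 40.48 and 46.92 TPM in MOC1E1 cultures, against 55.00, 51.74 and 42.56 TPM in MOC1 cultures, and was not called (-0.22 ± 0.11, limma adjusted p = 0.12). Without the MOC1 library at 42.56 TPM it had -0.33 and was called (limma adjusted p = 0.021). Klf2, S1pr1, S1pr4 and Cd69 lay at 0 to 1.09 TPM in the 6 cultures and did not pass the filter of at least 1 TPM in 3 libraries. Of 13975 genes tested 33.2% were called lower in MOC1E1 cultures and 20.2% higher.

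Across 27 sums, 1 for each class and library with at least 30 cells, Klf3 was the gene most like Klf2 among 4415 genes, with a Pearson r of 0.88 of log2(CPM + 10). The next 3 were Rasa3, Rasgrp2 and Gramd4, with r of 0.85, 0.84 and 0.81. The 5 genes most like S1pr1 were Il6ra (0.93), Slamf6, Kbtbd11, Slc17a9 and Atp1b3, and neither KLF gene was among them. Il6ra, the interleukin 6 receptor, stood in CD8 cells at 7.10 CPM with anti-PD-1, 1.20 CPM with anti-CTLA-4 and 10.9 CPM with isotype in MOC1. The 5 genes most like Klf3 were Klf2, Rasgrp2, Rasa3, Foxp1 and Stk38. The sums share libraries, depth and cell classes, and they mix the models. They also hold the values on which the genes were chosen, so r and its ranks are a description only. Over the 8 CD8 sums alone the ranks differed: Sidt1 was most like Klf2 (0.98), and Klf3 and S1pr1 ranked 10 and 11 (0.96 and 0.95), where S1pr1 ranked 271 over all sums (0.50).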

How the data were processed

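The 6 genes, the gene lists and the tests were chosen with earlier results of these data known. Single-cell tables hold whole UMI counts per gene and cell as the authors deposited them, and bulk tables hold TPM as deposited, so bulk depth is unknown. Per the submitters' processing notes, Cell Ranger 3.0.2, Seurat, Trimmomatic 0.36, kallisto 0.46.0 and DESeq2 were used, with builds mm10 and GRCh38 and no roles given. Per the labels' protocols, the 10x 5' gene expression and V(D)J kits were used, whose UMIs count molecules.

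Cells were kept from 300 genes upwards and up to 10% mitochondrial UMIs. Scrublet, run in scanpy 1.11.5, marked 0 to 12 cells a library by its own threshold, so cells were dropped by score rank, 0.8% for each 1000 cells (61 to 193 a library), which leaves doublets in. UMIs were summed per class and library as CPM with exact 95% Poisson intervals. Log2 ratios add 0.5 UMI to each sum and need 30 cells in both libraries and 20 UMIs over both, and their intervals are exact conditional ones (scipy 1.17.1). Shares of cells come after thinning to 2000 UMIs, which leaves out shallower cells. The median log2 ratio of all genes was within 0.1 of 0 except MOC22 (0.15 in CD8, 0.23 in CD4, 0.11 in Foxp3-positive cells) and MOC1 anti-CTLA-4 CD4 cells (-0.12).

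Paired sums within libraries, with at least 20 cells on both sides and library as a block, were tested with edgeR 4.0.16 (glmQLFit and glmQLFTest, TMM). Bulk log2(TPM + 1) values of genes with at least 1 TPM in 3 libraries were fitted with limma-trend 3.58.1 (R 4.3.3), the plan for TPM. All p-values are Benjamini-Hochberg adjusted over all genes tested, and a call is 0.05 or less. The edgeR and limma steps were tested on simulated data. Bulk columns were matched to groups only, since the MOC1 tumour and all culture columns carry numbers other than those in the titles.

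The MOC22 receptor descriptions point at each other's tables. Tables were assigned by the treatment in their own names, and 97.3% (anti-PD-1) and 96.1% (isotype) of receptor barcodes were then in the matching RNA library. For MOC1E1 it was 81.6% to 88.6%. Named genes are the 6 genes, the 4 genes of each list with the highest mean CPM in CD8 cells, and the 5 most like Klf2, S1pr1 and Klf3. Alternatives tried were TMM against DESeq2, low-count filters, stricter cell filters, doublets kept, 2 UMIs for a class, equal weight of cells, thinning, clones by beta chain, cells without Ccr7 (added after seeing the data) or without Mki67 or Top2a, other bulk pseudocounts and each library left out. A gene that the lists and naming rule held, and a repeat of the analyses that used it, are not reported here.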

Additional observations from a re-analysis of the deposited data

Results flagged for a closer look

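In 13 of 72 pairs of models under the same antibody, a gene's log2 ratio to isotype lay on opposite sides of 0 with both counting intervals excluding 0. Each value rests on 1 library against 1 library, and none of these differences between models was tested. The share of all genes that differ so between models was not measured. Nothing is therefore read from the count, or from which genes and classes it holds. No group had 4 to 10 samples, so no sample was checked as standing apart within its group.

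Klf6 gave 5 of the 13. With anti-PD-1 it had 0.60 in MOC22 and -0.52 in MOC1 in CD8 cells, and 1.15 in MOC22 and -0.22 in MOC1 in CD4 cells. With anti-CTLA-4 it was higher in MOC1E1 and lower in MOC1 in all 3 T cell classes, at 0.86 and -0.23 in CD8, 0.58 and -0.63 in CD4, and 0.56 and -0.67 in Foxp3-positive cells.

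Cd69 gave 4. In CD4 cells with anti-PD-1 it had 0.55 in MOC1E1, against -0.23 in MOC1 and -0.60 in MOC22. With anti-CTLA-4 it had 0.66 in MOC1E1 and -0.51 in MOC1 in CD4 cells, and 0.26 in MOC1E1 and -0.31 in MOC1 in CD8 cells.

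The other 4 pairs were in Foxp3-positive cells with anti-PD-1 and in CD4 cells with anti-CTLA-4. Klf2 had 0.37 in MOC1E1 and 0.28 in MOC1, each against -0.47 in MOC22, and S1pr1 had 0.40 in MOC1E1 against -0.66 in MOC22, all in Foxp3-positive cells. S1pr4 had -0.69 in MOC1E1 and 0.21 in MOC1 in CD4 cells. None of the 13 pairs concerned Klf2, Klf3 or S1pr1 in CD8 or CD4 cells.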

How the results depend on the processing

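No paired analysis was possible because the bulk tumour columns of the 2 lines share only 1 number and the culture columns share none; the single-cell tests already pair sums by library. Over the alternatives reported Klf2, Klf3 and S1pr1 in CD8 cells were lower in 120 of 120 values (-4.67 to -0.20), and in CD4 cells with anti-CTLA-4 48 of 48 were at -1 or lower. The number of the 3 genes' values at -1 or lower in Foxp3-positive cells was 1 in place of 0 with doublets kept and without Mki67 or Top2a cells. In NK cells it was 0 in place of 1 with 2 UMIs of lineage genes, thinned, with equal weight of cells and without Mki67 or Top2a cells.

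S1pr1 and Klf3 stayed higher and called in Klf2-positive cells in all 3 classes under every alternative reported. Without 1 library each, their log2 fold changes were 2.15 to 2.72 and 1.85 to 2.31 in CD8, 1.61 to 1.77 and 1.41 to 1.74 in CD4, and 1.21 to 1.67 and 1.51 to 1.84 in Foxp3-positive cells. Counts of genes called moved more. For CD8 cells (488 higher, 431 lower) they were 818 and 828 at full depth, 660 lower with no low count filter, 330 and 309 without Ccr7 cells (an alternative added after seeing the data), and 364 to 508 and 326 to 470 without 1 library each. For CD4 cells (229 and 238) they were 444 and 467 at full depth, 152 and 365 with no filter, and 143 to 243 and 152 to 236 without 1 library each, lowest without MOC1 anti-PD-1. For Foxp3-positive cells (75 and 55) they were 148 and 192 at full depth, 46 higher with DESeq2, 120 lower with no filter, and 38 to 62 and 23 to 60 without 1 library each. S1pr4 in Foxp3-positive cells was called at full depth (0.55, adjusted p = 0.012).

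In the Cd69 comparison Klf2 had 0.37 at full depth (adjusted p = 0.11), and 0.52 to 0.72 without 1 library each. S1pr1 had 0.22 to 0.37, called without MOC22 isotype (adjusted p = 0.043). Genes called (132 higher, 58 lower) were 76 and 25 with DESeq2, 67 and 36 at full depth, 119 lower with no filter, and 78 to 143 and 23 to 73 without 1 library each. Klf3 was not called with DESeq2 (0.062) or at full depth (0.15).

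In the clone comparison S1pr1 had -1.02 without Ccr7 cells (also added after seeing the data) and was not called, and genes called (207 higher, 329 lower) were 75 and 83. Clones by beta chain alone gave 513 and 649. Without 1 library each, Klf2 had -1.45 to -1.21, Klf3 -2.79 to -2.27 and S1pr1 -1.40 to -1.02, with 34 to 279 genes higher and 49 to 416 lower, lowest without MOC1E1 anti-PD-1 and MOC1 anti-PD-1. In bulk tumours (1014 higher, 1806 lower) 664 genes were higher with no low value filter, and 417 to 891 higher and 800 to 1754 lower without 1 library each. In cultures (2821 and 4640) these were 2148 to 2755 and 3727 to 4372. Klf6 in tumours was not called with no filter (0.058) or without the trend (0.055). The cause of these moves was not tested. No value changed sign while called. Depth limits the Foxp3-positive values with anti-CTLA-4, which rest on 44 (MOC1) and 41 (MOC1E1) cells, and those of MOC22 with anti-PD-1, on 75 cells.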
